A study of Mus musculus with 11 samples.

Results

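The proteins of the cytosolic ribosome are the subject here, followed as mRNAs in epithelial cells taken from mouse liver. They were chosen by gene type and name, as protein-coding entries called Rpl or Rps plus a number and suffix, together with Rpsa and the stalk genes Rplp0, Rplp1 and Rplp2, and without the Rps6k kinases. This gave 85 of the 43346 genes in the table, 52 for the large and 33 for the small ribosomal subunit. The libraries came from wildtype male C57BL/6 mice aged 14 to 16 weeks. In the R15 group (3 mice) 10 days on a DDC diet were followed by 15 days on chow, the DDC group (4 mice) was taken after 10 days on the DDC diet, and the Control group (4 mice) ate chow. DDC is a compound that injures bile ducts in mice, and cells bearing the epithelial marker EpCAM were held back by magnetic beads on a pair of columns in sequence. The labels call the cells cholangiocytes, the lining cells of bile ducts. Each library name carries its own mouse number, so replicates were taken as separate mice.

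A ribosome joins ribosomal RNA to about 1 copy of each ribosomal protein, so these mRNAs are abundant in every cell that makes protein. In mammals most of them begin with a C followed by a run of pyrimidines, the 5′ terminal oligopyrimidine (TOP) tract, through which mTOR signalling controls how strongly they are translated. Ribosomal proteins that are not built into subunits are rapidly degraded, and some of them, such as Rpl5 and Rpl11, bind Mdm2 when free and so raise p53.

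Cholangiocyte transcripts were abundant in all groups, and the library totals recovered from the table were 49339240 to 72929107 reads. The summed level of 12 cholangiocyte markers was 10130 to 11140 FPKM in R15, 12000 to 13540 in DDC and 9510 to 12230 in Control. FPKM is the number of fragments per kilobase of gene length, scaled to library size. Transcripts of other cells were present as well. Of 10 macrophage markers 9 were higher in DDC than in Control, and so were 3 of 3 tested neutrophil markers. The summed level of the macrophage markers was 142, 732 and 172 FPKM in R15 1 to 3, 1360 to 2440 FPKM in DDC and 126 to 150 FPKM in Control. The sum of 5 neutrophil markers was 2.53 to 9.42 FPKM in R15, 40.6 to 68.6 in DDC and 1.19 to 3.78 in Control. Of these 5, Ly6g and Mpo were below 0.1 FPKM in every library, while 0 of the macrophage markers were. Of 8 endothelial markers 8 were lower in DDC than in Control. Of 10 hepatocyte markers 3 were lower and 2 higher in DDC than in Control. The hepatocyte sum was 1797 to 2472 FPKM in R15, 1070 to 1610 in DDC and 2925 to 3611 in Control. Most of that sum was Alb, which averaged 1731 FPKM in R15, 1028 in DDC and 2773 in Control. Pancreatic acinar transcripts took 0.118% to 1.01% of the reads in Control 1 to 3, 0.163% in R15 3 and 0.119% in DDC 1, and at most 0.0012% elsewhere. All 37 mitochondrial genes were listed at 0.

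The starts of some of these genes are printed here because a TOP mRNA is defined by a pyrimidine run at its start. Not every window printed has a run there. Each line holds 45 bases before and 15 bases from the RefSeq start (GRCm38.p6, 5′ to 3′ on the gene's strand). Capitals mark a C followed by at least 4 pyrimidines where the run comes within 15 bases of the start. The RefSeq start lay 45, 2, 3, 0, 16 and 72 bases from the start of the GENCODE M21 gene in the order printed.
Rps6: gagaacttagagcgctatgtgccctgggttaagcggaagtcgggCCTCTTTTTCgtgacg
Rps21: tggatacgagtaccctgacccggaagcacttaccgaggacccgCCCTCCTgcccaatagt
Rps27: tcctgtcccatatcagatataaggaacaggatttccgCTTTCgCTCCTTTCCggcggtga
Rps27l: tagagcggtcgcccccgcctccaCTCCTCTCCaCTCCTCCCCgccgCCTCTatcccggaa
Rpl22: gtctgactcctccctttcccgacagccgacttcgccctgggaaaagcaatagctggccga
Rpl22l1: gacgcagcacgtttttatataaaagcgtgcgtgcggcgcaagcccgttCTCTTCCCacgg
These windows lie at chr4:86857353-86857412 on the minus strand (Rps6), chr2:180257334-180257393 on the plus strand (Rps21) and chr3:90213634-90213693 on the minus strand (Rps27). The others lie on the plus strand, at chr9:66946041-66946100 (Rps27l), chr4:152325681-152325740 (Rpl22) and chr3:28805463-28805522 (Rpl22l1). Rps6, Rps21 and Rps27 have a run across the start, Rps27l has 3 runs close to it, and Rpl22 has none within the distance used.

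A RefSeq start window of 300 bases, 250 of them before the start, was found for 63 of the 85 genes. Where a ribosomal protein gene had more than 1 window, as 10 did, the one nearest the GENCODE start was used. The shares of all genes and of the genes tested count every window, so the shares compared below are not counted alike. A C at the annotated start itself led a run of at least 5 pyrimidines in 12 of the 63 (19.0%), against 2.51% of 32851 windows of all genes and 2.29% of those of the genes tested. Such a run within 5 bases of the start was found in 28 (44.4%), against 18.3% of all windows and 19.6% of those of the genes tested. The 12 genes were Rpl14, Rpl15, Rpl28, Rpl35, Rpl38, Rplp2, Rps10, Rps15a, Rps18, Rps21, Rps27 and Rps6. CCGGAAG, the core recognised by ETS factors such as GABP, stood on one strand or the other in 25 of the 63 windows (39.7%), against 8.86% of all windows and 16.8% of those of the genes tested. AAGATGGC, the core bound by YY1, was found in 5 (7.94%), against 2.75% of all windows and 4.22% of those of the genes tested. The series title names NF-Y, a factor that binds CCAAT, and CCAAT on either strand was found in 19 of the 63 (30.2%), against 37.4% of all windows and 37.3% of those of the genes tested. Matches to different motifs may overlap. The median log2 fold change of DDC against Control was 0.43 with CCGGAAG and 0.41 without it, and 0.21 with AAGATGGC (5 genes) and 0.42 without it, as a description.

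Rpsa and Rplp0, among the 5 genes with the largest rise under the diet, are shown next with CCAAT, or its reverse complement ATTGG, in capitals. The windows are chr9:120127721-120127780 and chr5:115559422-115559481, both on the plus strand, and their RefSeq starts lay 77 and 0 bases from the GENCODE start.
Rpsa: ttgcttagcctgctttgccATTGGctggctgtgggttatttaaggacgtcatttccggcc
Rplp0: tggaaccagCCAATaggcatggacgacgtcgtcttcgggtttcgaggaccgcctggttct
Such letters are a description of the window, and binding was not measured.

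Ribosomal protein mRNAs were higher after 10 days of DDC and back near the Control level after 15 days of chow. Of the 82 genes with at least 1 FPKM in 3 libraries, 75 were higher in DDC than in Control, 1 was lower and 6 passed in neither direction (limma on log2(FPKM + 1), adjusted p under 0.05). The diet moved much of the transcriptome. Of the 15264 genes tested 65.4% passed, 33.5% higher and 31.9% lower, where 91.5% of the ribosomal protein genes were higher and 1.22% lower. Among the 1423 genes with at least 50 FPKM in 3 libraries, a level that most ribosomal protein genes reach, 47.2% were higher and 30.4% lower. The median log2 fold change of the 82 genes was 0.41, a 1.33-fold difference, against 0.003 over all genes tested. Over the 1423 genes with at least 50 FPKM it was 0.12. Differences were small and alike, with quartiles of 0.32 and 0.51 and 66 of 82 genes between 0.2 and 0.6 in size. In 70 genes the lowest DDC library lay above the highest Control library, which held for 31.5% of all genes. In whole-cell RNA from a mixed cell suspension, fewer cells of a type and less RNA per cell cannot be told apart. The rise went along with the macrophage and neutrophil markers given above, and their part in it was not tested.

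**Figure D1:**
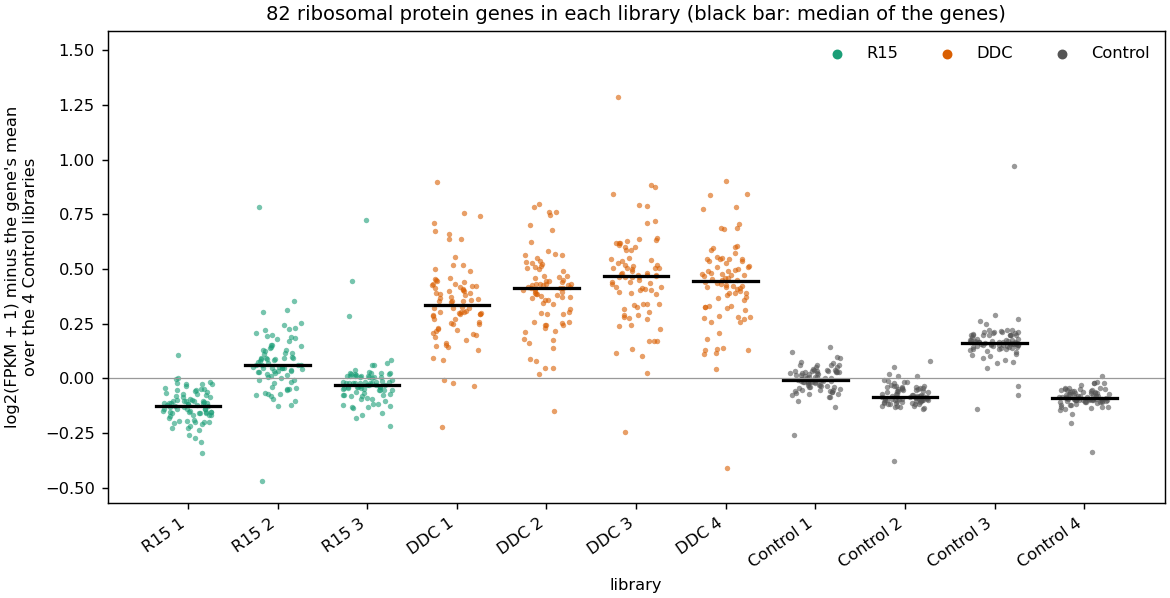
Each point is 1 of 82 ribosomal protein genes in 1 library, as log2(FPKM + 1) minus the gene's mean over the 4 Control libraries, and black bars are medians over the genes. The bars of DDC 1 to 4 stand above those of every R15 and Control library, and Control 3 and R15 2 are the highest of their groups.

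Libraries differed in the share taken by these genes. Ribosomal protein genes took 4.71%, 5.07% and 4.92% of the summed FPKM in R15 1 to 3, 5.99%, 6.21%, 6.44% and 6.28% in DDC 1 to 4, and 4.87%, 4.74%, 5.35% and 4.78% in Control 1 to 4. The means were 4.90% ± 0.182 in R15 (SD, n = 3), against 6.23% ± 0.186 in DDC and 4.93% ± 0.280 in Control (SD, n = 4 each). Every DDC library lay above every library of both other groups. R15 2, whose macrophage sum was the highest of the libraries off the diet, had the highest share in R15 at 5.07%. Control 3, with a macrophage sum of 128 FPKM, had 5.35%. The part of macrophage transcripts in these shares was not tested. By reads the shares were 2.00% in R15, 2.72% in DDC and 2.03% in Control. Deviations of 2 ribosomal protein genes from their group means had a median correlation of 0.86 over 3321 gene pairs and 11 libraries, a description of values that share each library's depth and scaling. The median SD within groups was 0.10 on the log2 scale, against 0.11 for all genes tested.

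The small subunit (the 40S particle, which binds the mRNA and decodes it) had 33 genes, all of them tested. In DDC 30 were higher than in Control and 1 was lower, with a median log2 fold change of 0.41. Rpsa, a protein of the 40S particle that is also known as the laminin receptor and overlaps 3 snoRNA entries, had the largest rise of all 82. It stood at 250, 339 and 269 FPKM in R15, 447, 475, 501 and 510 FPKM in DDC, and 284, 255, 308 and 249 FPKM in Control. All DDC libraries were above all others, and the other groups overlapped. The log2 fold change of DDC against Control was 0.82 ± 0.10 (SE; limma adjusted p = 6.5e-05), a 1.77-fold difference on the FPKM + 1 scale (ENSMUSG00000032518; mm10 chromosome 9, 120127766 to 120132369).

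Rps2, a further core protein of the 40S particle, followed with a log2 fold change of 0.81 ± 0.10 (adjusted p = 6.9e-05). It stood at 141, 181 and 179 FPKM in R15, 246, 253, 271 and 263 in DDC, and 143, 135, 177 and 134 in Control. The DDC libraries stood clear of the other libraries. Rps2 overlaps the entry Snhg9 and 2 snoRNA entries. Rps19, often mutated in Diamond-Blackfan anaemia, was at 0.68 ± 0.06 (adjusted p = 8e-06). It was named after its value was seen.

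Rps6 is the protein phosphorylated by the S6 kinases downstream of mTOR. It stood at 88.2, 113 and 97.0 FPKM in R15, 134, 144, 152 and 149 in DDC, and 101, 90.8, 115 and 92.2 in Control. The DDC libraries did not overlap the others, and the log2 fold change was 0.54 ± 0.09 (adjusted p = 0.00048). Rps26, which lines the mRNA exit channel, averaged 384 ± 35.9 FPKM in R15 (SD, n = 3), against 590 ± 37.4 FPKM in DDC and 412 ± 59.2 FPKM in Control (SD, n = 4 each), a log2 fold change of 0.53 ± 0.10 for DDC against Control. Rps25, needed for initiation at some viral internal entry sites, was at 0.45 ± 0.07. Rps10, a target of the quality control ligase Zfp598, was at 0.33 ± 0.06, and Rps3, at the mRNA entry channel, at 0.27 ± 0.06. Those 4 passed the threshold with adjusted p between 0.00024 and 0.0035.

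The large subunit (the 60S particle, which forms peptide bonds) had 49 tested genes, of which 45 were higher in DDC, none was lower, and 4 did not pass. Its median log2 fold change of 0.42 was close to that of the small subunit. Rpl12, at the base of the stalk, had the largest rise. It stood at 54.9, 67.4 and 59.1 FPKM in R15, 99.0, 98.5, 105 and 105 in DDC, and 57.4, 53.7, 67.0 and 55.8 in Control. No DDC library came near the others, and the log2 fold change was 0.80 ± 0.08 (limma adjusted p = 1.2e-05). Rpl12 overlaps the gene Lrsam1 and 1 snoRNA entry. Rpl3, near the peptidyl transferase centre, was at 0.47 ± 0.05 and Rpl13a at 0.49 ± 0.08.

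The stalk recruits elongation factors to the 60S particle, and its 3 proteins are Rplp0, which anchors it, and the dimerising Rplp1 and Rplp2. Rplp0 stood at 340, 420 and 363 FPKM in R15, 587, 625, 637 and 631 in DDC, and 387, 340, 410 and 339 in Control. The DDC libraries stood apart from the rest, with a log2 fold change of 0.75 ± 0.09 (adjusted p = 3.3e-05; ENSMUSG00000067274; mm10 chromosome 5, 115559467 to 115563727). Rplp1 was the gene with the highest Control level, at 913 ± 72.2 FPKM in R15 (SD, n = 3), against 1422 ± 108 FPKM in DDC and 1045 ± 108 FPKM in Control (SD, n = 4 each). Its log2 fold change was 0.45 ± 0.10 (adjusted p = 0.0026, and 0.082 with no filter on low values). Rplp2 was at 0.49 ± 0.07 (adjusted p = 0.00011).

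Rpl5 and Rpl11 join the 5S ribosomal RNA into a particle that enters the large subunit or, when free, binds Mdm2. Rpl11 stood at 64.4, 72.4 and 68.8 FPKM in R15, 91.1, 95.8, 97.1 and 97.2 in DDC, and 70.9, 70.8, 81.7 and 68.2 in Control. Every DDC library was above every other, with a log2 fold change of 0.39 ± 0.06 (adjusted p = 0.00025). Rpl5 stood at 92.5, 97.3 and 93.4 FPKM in R15, 101, 106, 106 and 104 in DDC, and 90.9, 91.7, 103 and 92.5 in Control. Here Control 3 overlapped the DDC libraries, and the log2 fold change was 0.14 ± 0.04 (adjusted p = 0.018). The call was lost with libraries rescaled to the same total (0.05, adjusted p = 0.25), under quantile normalization (0.06, adjusted p = 0.22), without DDC 3 (0.13, adjusted p = 0.05) and without the acinar libraries (0.18, adjusted p = 0.053). The interval of Rpl5, 0.04 to 0.24, ended below that of Rpl11, which began at 0.25. That pair was not tested against each other. Rpl23 and Rpl26, which bind Mdm2 too, were at 0.27 ± 0.06 and 0.26 ± 0.07 (adjusted p = 0.004 and 0.0056), and quantile normalization ended the call of Rpl26 (0.12, adjusted p = 0.096). Rpl38, known from the translation of Hox mRNAs in mouse embryos, was at 0.28 ± 0.07 (adjusted p = 0.0048).

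Rpl21, Rpl22, Rpl37a, Rpl7, Rps21 and Rps27 passed in neither direction. Rps27, the 40S protein with the shortest gene model, stood at 860, 1045 and 969 FPKM in R15, 985, 1046, 1071 and 1068 in DDC, and 1054, 903, 1092 and 918 in Control. The groups overlapped throughout, and DDC differed from Control by 0.08 ± 0.09 on the log2 scale (95% interval -0.13 to 0.28). Rps21 was at 0.06 ± 0.07 (interval -0.11 to 0.22), Rpl21 at 0.11 ± 0.06 (interval -0.03 to 0.25) and Rpl7 at 0.16 ± 0.07 (interval -0.004 to 0.31). Rpl7 passed as higher without Control 3 (0.21, adjusted p = 0.019), without R15 2 (adjusted p = 0.033), with array weights (0.18, adjusted p = 0.011) and in a fit of the 2 groups alone (adjusted p = 0.04). The upper ends of these 4 intervals lie below the median of the set, 0.41. Rps21 and Rps27 are also among the 12 genes with a pyrimidine run at the annotated start, shown above. The 12 had a median log2 fold change of 0.39, and the 48 tested genes with a window and no such run had 0.43. Genes with CCAAT had a median of 0.38 (19 genes) and those without had 0.44 (41 genes), each a description.

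**Figure D2:**
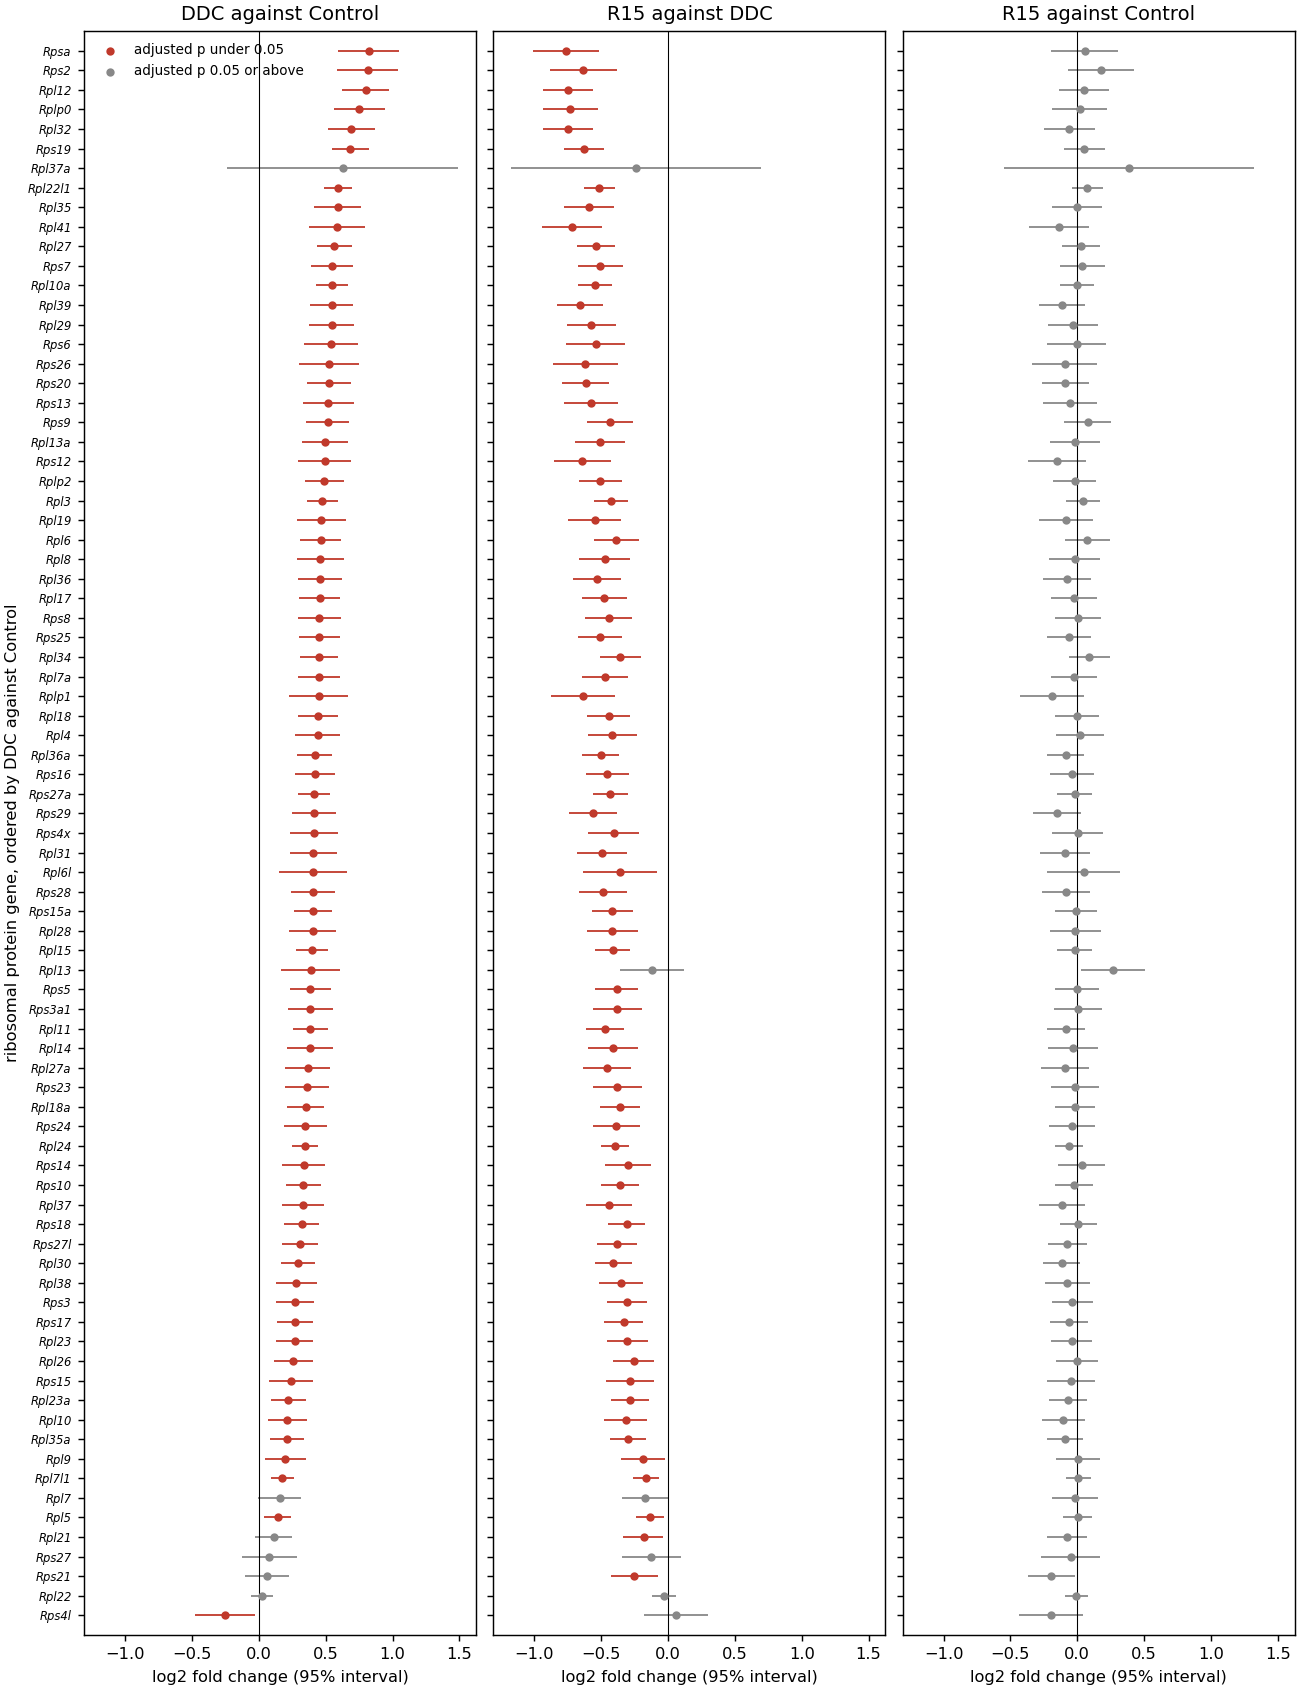
Log2 fold changes of 81 of the 82 ribosomal protein genes with 95% intervals in the 3 comparisons, one line per gene in the same order, with red where the limma adjusted p is under 0.05. Nearly all genes lie above 0 in DDC against Control and below 0 in R15 against DDC, and none is red in R15 against Control.

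Some ribosomal proteins have a second gene that codes for a similar protein. Rpl22 is an RNA-binding protein of the large subunit, and Rpl22l1 is its paralog, which Rpl22 is known to repress in mice. Rpl22 stood at 68.2, 71.1 and 68.1 FPKM in R15, 68.4, 71.7, 70.7 and 71.5 in DDC, and 66.5, 69.9, 73.2 and 68.4 in Control. Its groups overlapped, and DDC differed from Control by 0.02 ± 0.04 on the log2 scale (interval -0.06 to 0.11), the narrowest interval of the 82. Rpl22l1 stood at 22.3, 21.1 and 21.9 FPKM in R15, 30.7, 32.3, 31.4 and 31.6 in DDC, and 18.7, 21.4, 22.0 and 20.4 in Control. The DDC libraries were clear of all others, with a log2 fold change of 0.59 ± 0.05 and the smallest adjusted p of the 82 genes (3.5e-06). The gene overlaps the entry Gm33051 and has 8.68% of the joint reads on matched copies. Rpl22l1 took 24.6%, 22.9% and 24.3% of the FPKM of the pair in R15, 30.9%, 31.0%, 30.8% and 30.7% in DDC, and 21.95%, 23.4%, 23.1% and 22.9% in Control.

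Rps27l, a paralog of Rps27 and a known p53 target, stood at 59.4, 62.1 and 67.3 FPKM in R15, 79.4, 85.1, 83.9 and 80.4 in DDC, and 66.7, 62.4, 74.2 and 62.2 in Control. It rose without overlap, at a log2 fold change of 0.31 ± 0.06 (adjusted p = 0.0014). Of the FPKM of the pair it took 6.46%, 5.61% and 6.501% in R15, 7.46%, 7.52%, 7.26% and 7.002% in DDC, and 5.95%, 6.47%, 6.37% and 6.35% in Control. Transcripts of these genes are distinct, with 74.6% identity over 299 aligned bases for Rpl22l1 and Rpl22 and 76.4% over 254 bases for Rps27l and Rps27. Rpl7l1 rose by 0.17 ± 0.04 (adjusted p = 0.0029), beside 0.16 for Rpl7, and the call of Rpl7l1 was lost with libraries rescaled to the same total (0.09, adjusted p = 0.14).

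**Figure D3:**
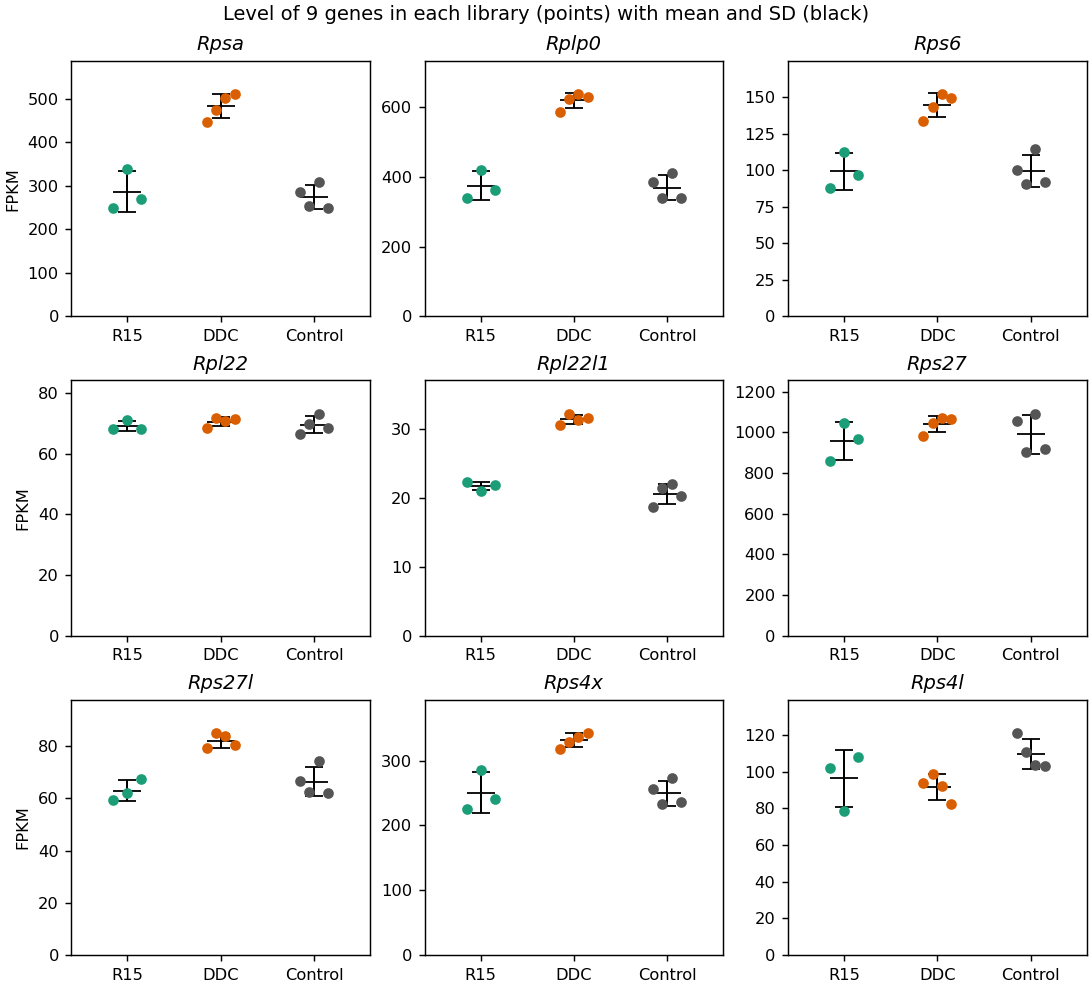
FPKM of 9 ribosomal protein genes, each panel on its own axis from 0, with R15, DDC and Control from left to right, a point per library, and mean and SD in black. DDC points lie above the other groups for Rpsa, Rplp0, Rps6, Rpl22l1, Rps27l and Rps4x, overlap them for Rpl22 and Rps27, and lie below Control for Rps4l.

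Rps4l was the one gene that was lower in DDC. It stood at 102, 78.8 and 108 FPKM in R15, 93.9, 98.6, 92.2 and 82.2 in DDC, and 121, 111, 104 and 103 in Control. The DDC and Control libraries did not overlap, which in the lower direction held for 29.8% of all genes. The R15 libraries spread across both. The log2 fold change was -0.26 ± 0.10 (adjusted p = 0.044), and the call was lost without Control 1, Control 2, DDC 1, DDC 3, DDC 4 or R15 1. Rps4x, the X-linked gene of the same protein family, rose by 0.41 ± 0.08 (adjusted p = 0.0011), at 251 ± 31.5 FPKM in R15 (SD, n = 3), against 331 ± 10.8 FPKM in DDC and 249 ± 18.6 FPKM in Control (SD, n = 4 each). The table types Rps4l as protein-coding, whereas GENCODE M21 lists it as a transcribed processed pseudogene, and its transcript is 79.7% identical to Rps4x over 814 bases. It overlaps the entry Tmtc1 and lies at mm10 chromosome 6, 148354656 to 148355598. Rpl6l, too, is a processed pseudogene in GENCODE M21, with 98.7% identity to Rpl6 over 871 bases, so that reads of both cannot be assigned with certainty. Rpl6l was at 0.41 ± 0.11 and Rpl6 at 0.46 ± 0.07. Rpl6l was at 0.63 without the acinar libraries, which leaves 1 Control library, so no call is read from that fit.

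The difference within pairs was compared as the log2 ratio of the paralog to the gene it is named after, a comparison added after the values were seen. For DDC against Control it was 0.57 for Rpl22l1 over Rpl22, 0.23 for Rps27l over Rps27 and -0.67 for Rps4l over Rps4x, with no overlap of the groups. Each had p = 0.0286 in an exact two-sided permutation test, the smallest that 4 against 4 libraries can give, and an adjusted p of 0.143 over 15 tests (5 pairs in 3 comparisons). No pair thus passed after adjustment. Rpl7l1 over Rpl7 (0.02) and Rpl6l over Rpl6 (-0.06) had exact permutation p of 0.771 and 0.657.

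The other 3 paralogs lay under the filter. Rpl10l, active in the testis in place of X-linked Rpl10, had 0 reads in every library, which allows up to 3 reads per library. Rpl39l, a testis paralog of Rpl39, had 0 to 0.0188 FPKM in R15, 0.0371 to 0.0731 in DDC and 0 to 0.0512 in Control. Rpl3l, which replaces Rpl3 in heart and skeletal muscle, had 0 to 0.0381 FPKM in R15, 0.0334 to 0.103 in DDC and 0 to 0.0105 in Control. Their partners Rpl10, Rpl39 and Rpl3 rose by 0.21, 0.54 and 0.47 on the log2 scale. Rpl10 was at 0.31 without the acinar libraries, which leaves 1 Control library, so no call is read from that fit.

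Rpl37a, of the large subunit, varied more than any other of the 82 genes, with an SD within groups of 0.61 on the log2 scale where the next highest had 0.18. It stood at 109, 238 and 229 FPKM in R15, 259, 157, 339 and 152 in DDC, and 116, 106, 272 and 110 in Control. High and low libraries occurred in every group, and DDC against Control did not pass (0.63 ± 0.39, adjusted p = 0.18). The entry Gm4149, a near-identical pseudogene, was low where Rpl37a was high. It held 6418, 2477 and 2627 reads in R15, 3157, 9035, 3183 and 7601 in DDC, and 7472, 5208, 3696 and 6302 in Control. Matched copies held 22.3% to 61.6% of the reads of gene and copies together. With their reads added Rpl37a stood at 271 to 307 FPKM in R15, 335 to 453 in DDC and 263 to 366 in Control, and it was higher in DDC by 0.39 ± 0.12 (adjusted p = 0.014), an alternative chosen after seeing the data.

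**Figure D4:**
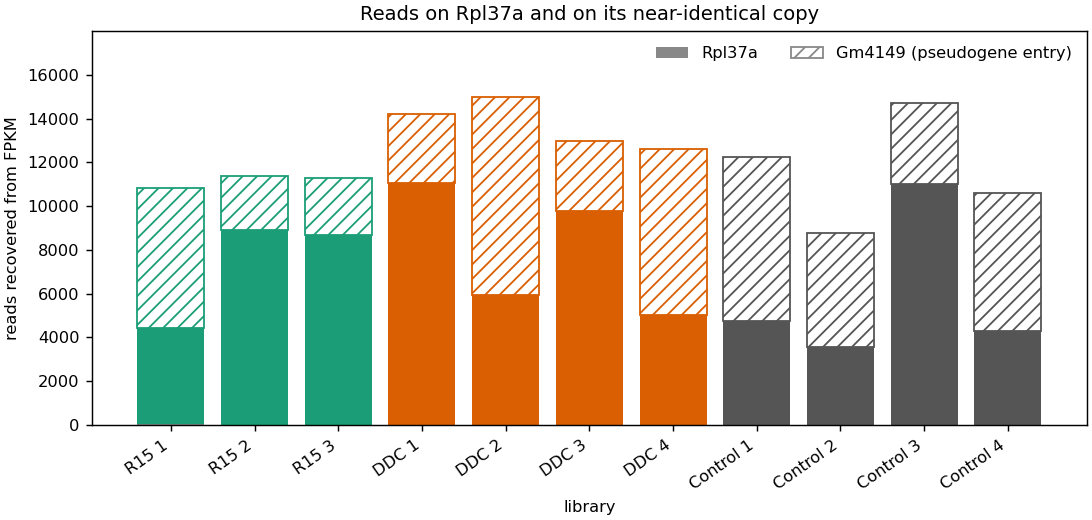
Reads on Rpl37a (filled) and on the pseudogene entry Gm4149 (hatched) in each library, stacked and not scaled for depth. The split between the 2 entries changes from library to library in every group, with 3583 to 11043 reads on Rpl37a.

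Elsewhere copies changed no call in DDC against Control. Ribosomal protein genes have many retrocopies in the mouse genome, and 776 entries of the table matched 1 of the 85 genes at 90% identity or more over at least 50% of their length. They held 7.53% to 7.95% of the joint reads in R15, 7.35% to 7.80% in DDC and 7.65% to 7.88% in Control. The copy share was above 10% for 28 genes and under 1% for 18. Adding these reads to their genes gave 76 higher and 1 lower in DDC against Control and a median of 0.41. Rpl37a was the one gene whose call changed in that comparison. Of the 85 genes 30 hold snoRNA entries and 22 overlap another entry that is no small RNA. The kit keeps strand, and whether the counting used strand could not be read from the labels.

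Against DDC, the R15 libraries were lower in 76 of the 82 genes and higher in none, where 62.2% of all genes passed, 28.8% lower and 33.4% higher. The median log2 fold change was -0.43, against 0.04 over all genes tested and -0.17 over genes with at least 50 FPKM in 3 libraries. Of the 10 macrophage markers 7 were lower in R15 than in DDC too, and their part in the difference was not tested. In 74 genes every R15 library lay below every DDC library, which held for 31.0% of all genes, and in 0 every R15 library lay above, which held for 35.6%. Among genes of at least 50 FPKM, 49.3% were lower and 25.9% higher. The largest differences were those of Rpsa (-0.77 ± 0.11, adjusted p = 0.00024), Rpl32 (-0.75 ± 0.09, adjusted p = 4.8e-05), Rpl12 (-0.75 ± 0.08, adjusted p = 4.6e-05), Rplp0 (-0.73 ± 0.09, adjusted p = 9.8e-05) and Rpl41 (-0.72 ± 0.10, adjusted p = 0.00019). Rpl32 is a core protein of the large subunit, and Rpl41 is its smallest protein. Rpl32 stood at 435, 498 and 459 FPKM in R15, 764, 785, 795 and 779 in DDC, and 482, 449, 557 and 452 in Control. Rpl41 stood at 198, 241 and 211 FPKM in R15, 339, 352, 370 and 360 in DDC, and 242, 215, 282 and 214 in Control. In both the DDC libraries were the highest, and R15 and Control overlapped.

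Both comparisons use the same DDC libraries, so the results are given side by side and no correlation is drawn between them. Of the genes higher in DDC than in Control, 74 were lower in R15 than in DDC. Rpl13 was higher in DDC and did not pass as lower in R15. It stood at 76.0, 97.3 and 104 FPKM in R15, 95.5, 103, 102 and 97.6 in DDC, and 71.6, 70.3, 88.3 and 74.8 in Control, so that R15 2 and R15 3 lay above the lowest DDC library and R15 1 lay within the Control range. Rpl21 and Rps21 were lower in R15 than in DDC (-0.18 ± 0.07 and -0.25 ± 0.08, adjusted p = 0.035 and 0.019) without having passed as higher in DDC. Rps21 stood at 212, 235 and 226 FPKM in R15, 251, 265, 276 and 278 in DDC, and 271, 234, 288 and 238 in Control, with DDC and Control overlapping. Rpl22, Rpl37a, Rpl7 and Rps27 passed in neither comparison, and Rps4l passed only as lower in DDC.

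Between R15 and Control no ribosomal protein gene passed, in either direction, where 9.58% of all genes passed, 6.87% higher and 2.72% lower. Among genes of at least 50 FPKM, 5.13% were higher and 6.39% lower. The count at an unadjusted p under 0.05 was 2, the smallest limma adjusted p was 0.14, and limma voom on recovered reads also called 0. The median log2 fold change was -0.02, with quartiles of -0.07 and 0.007. In 80 of the 82 genes the 95% interval lay within 0.5 of 0, and half-widths had a median of 0.17. Rpsa was at 0.06 (interval -0.19 to 0.31), Rplp0 at 0.02 (interval -0.19 to 0.23) and Rps6 at -0.005 (interval -0.23 to 0.22). In Rps12 and Rps29 every R15 library lay below every Control library, which held for 6.30% of all genes, and 0 genes stood wholly above, which held for 15.0%. Rpl13 (0.27 ± 0.11) and Rps21 (-0.19 ± 0.08) were the 2 with an unadjusted p under 0.05, at adjusted p = 0.14 and 0.15. Without R15 1, Rpl13 passed (0.40, adjusted p = 0.039).

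Other genes of the ribosome and its supply were taken from lists chosen with earlier results known. Over all genes tested, 33.5% were higher and 31.9% lower in DDC against Control, and 33.4% were higher and 28.8% lower in R15 against DDC. Of 4 ribosomal protein genes outside the naming rule, 4 were higher in DDC than in Control and 4 were lower in R15 than in DDC. Fau makes a small subunit protein fused to a ubiquitin-like domain, Rpl36al is a paralog of Rpl36a, and Rack1 is a scaffold on the 40S particle. Rack1 averaged 106 ± 5.75 FPKM in R15 (SD, n = 3), against 151 ± 7.41 FPKM in DDC and 108 ± 9.08 FPKM in Control (SD, n = 4 each), a log2 fold change of 0.49 ± 0.06 for DDC against Control (adjusted p = 8.4e-05). Fau was at 0.46 ± 0.09 and Rpl36al at 0.35 ± 0.09. In R15 against Control 0 of the 4 passed, with Rpl36al at -0.18 ± 0.10 (adjusted p = 0.23).

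Of 17 other mRNAs known to carry a TOP tract, mostly translation factors, 14 were higher in DDC than in Control and 1 was lower, with a median log2 fold change of 0.40. In R15 against DDC 15 were lower and 1 was higher, with a median of -0.31. Npm1, a nucleolar chaperone of ribosome assembly, averaged 95.5 ± 7.15 FPKM in R15 (SD, n = 3), against 128 ± 3.97 FPKM in DDC and 81.96 ± 5.96 FPKM in Control (SD, n = 4 each), with 0.64 ± 0.06 for DDC against Control (adjusted p = 9.3e-06). Hnrnpa1, an RNA-binding protein of splicing, was at 0.60 ± 0.06 and Ipo5, an importin, at 0.58 ± 0.05. Against DDC, R15 was lower in Ipo5 (-0.55 ± 0.06), Pabpc1, the poly(A)-binding protein (-0.74 ± 0.11), and Npm1 (-0.43 ± 0.07). In R15 against Control 0 of the 17 passed, the nearest being Npm1 (0.22, adjusted p = 0.065) and Eif2s3x, a subunit of an initiation factor (-0.14, adjusted p = 0.11). Npm1 passed without Control 3 (0.26, adjusted p = 0.038) and with libraries rescaled to the same total (0.25, adjusted p = 0.036). Eif2s3x passed with median-of-ratios scaling, with and without ribosomal protein genes (-0.19, adjusted p = 0.047 and 0.048). Under quantile normalization Npm1 and Eif2s3x both passed (adjusted p = 0.031 and 0.047). Mitochondrial ribosomal proteins, which build the separate ribosome of that organelle, were higher in 29 (36.7%) and lower in 10 (12.7%) of 79 in DDC against Control, at a median of 0.07, where 33.5% of all genes were higher and 31.9% lower. In R15 against DDC 37 (46.8%) were lower and 3 (3.80%) higher, at a median of -0.13, where 28.8% of all genes were lower and 33.4% higher. Mrpl20 (0.50 ± 0.06) and Mrps18b (0.37 ± 0.04) rose and Mrpl50 fell (-0.40 ± 0.03) in DDC. In R15 against Control 2 (2.53%) were lower, a share near the 2.72% of all genes. They were Mrpl50 (-0.13, adjusted p = 0.037) and Mrps12 (-0.21, adjusted p = 0.037). Mrpl50 lost its call without any single library except Control 2 and DDC 2 (adjusted p 0.054 to 0.11), and Mrps12 without any except Control 2, Control 4 and DDC 1 (adjusted p 0.054 to 0.11).

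Of 24 genes that control translation of TOP mRNAs, 7 (29.2%) were higher and 7 (29.2%) lower in DDC than in Control, shares near the 33.5% and 31.9% of all genes, at a median of -0.09. Eif4a1, the RNA helicase of the cap-binding complex, averaged 58.9 ± 2.63 FPKM in R15 (SD, n = 3), against 115 ± 2.75 FPKM in DDC and 53.1 ± 3.39 FPKM in Control (SD, n = 4 each), at 1.104 ± 0.05 for DDC against Control (adjusted p = 1.8e-07) and -0.95 ± 0.05 for R15 against DDC. The La-related Larp4b fell by 0.80 on the log2 scale and Eif4ebp2, a repressor of cap-dependent initiation, fell by 0.33. In R15 against DDC 9 (37.5%) were higher and 6 (25%) lower, where 33.4% of all genes were higher and 28.8% lower, among them Eif4ebp2 (0.28 ± 0.03) and Tsc2, a brake on mTOR (0.43 ± 0.05). None passed in R15 against Control, where Mtor itself was at 0.14 and Eif4a1 at 0.15 (adjusted p = 0.074 and 0.1). Eif4a1 passed under quantile normalization (0.20, adjusted p = 0.034) and with libraries rescaled to the same total (0.18, adjusted p = 0.041). These are transcript levels, and neither mTOR activity nor translation was measured.

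Chaperones and importers of ribosomal proteins were higher in 10 (55.6%) and lower in 3 (16.7%) of 18 in DDC against Control, at a median of 0.22, where 33.5% of all genes were higher and 31.9% lower. The importin Kpnb1 rose by 0.47 ± 0.03, the 40S assembly factor Ltv1 by 0.87 ± 0.06 and the ribosome-bound chaperone Dnajc2 by 0.52 ± 0.05. In R15 against DDC 10 (55.6%) were lower, with Ltv1 at -0.64 ± 0.07 and Kpnb1 at -0.43 ± 0.03, and 3 (16.7%) were higher. Of all genes 28.8% were lower and 33.4% higher. In R15 against Control 2 of 18 (11.1%) were higher, where 6.87% of all genes were higher. They were Ttc4, a cochaperone (0.20, adjusted p = 0.016), and Ipo9, an importin (0.18, adjusted p = 0.028). Ttc4 lost its call without R15 2 (adjusted p = 0.054), and Ipo9 without Control 1, Control 3, R15 1 or R15 2 (adjusted p 0.058 to 0.088). Ttc4 and Ipo9 were both at 0.17 without the acinar libraries, which leaves 1 Control library, so no call is read from that fit. Among 8 genes that respond to free ribosomal proteins, 3 (37.5%) were higher and 2 (25%) lower in DDC, shares near those of all genes, at a median of 0.03. Trp53, the p53 gene, averaged 23.6 ± 0.557 FPKM in R15 (SD, n = 3), against 32.9 ± 2.59 FPKM in DDC and 17.4 ± 1.37 FPKM in Control (SD, n = 4 each). It rose by 0.88 ± 0.07 in DDC against Control and was still above Control in R15 (0.42 ± 0.07, adjusted p = 0.0084). R15 against Control was at 0.39 for Trp53 without the acinar libraries, which leaves 1 Control library, so no call is read from that fit. Rrp8, a nucleolar methyltransferase, was at 0.32 ± 0.06 in DDC, and Huwe1, a ubiquitin ligase for unassembled ribosomal proteins, at -0.36 ± 0.09. In R15 against DDC 3 (37.5%) were higher and 1 (12.5%) lower, where 33.4% of all genes were higher and 28.8% lower. Huwe1 (0.68 ± 0.09) and Mdm4, an inhibitor of p53 (0.48 ± 0.10), were among the 3, and Trp53 (-0.46 ± 0.07) was the one that was lower.

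Ribosome quality control and splitting factors were higher in 4 (36.4%) and lower in 3 (27.3%) of 11 in DDC, at a median of 0.10, shares near the 33.5% and 31.9% of all genes. Abce1, which splits ribosomes, was at 0.30 ± 0.04, the deubiquitinase Usp21 at -0.33 ± 0.05 and the ligase Ltn1 at -0.25 ± 0.04. In R15 against DDC 3 (27.3%) were higher, among them Usp21 (0.46 ± 0.05) and Ltn1 (0.32 ± 0.05), and 1 (9.09%) was lower, Abce1 (-0.25 ± 0.04). Of all genes 33.4% were higher and 28.8% lower. In R15 against Control none passed, with Usp21 at 0.13 and Ascc3, a helicase for collided ribosomes, at 0.14 (adjusted p = 0.14 and 0.17), and Usp21 passed without Control 2 (0.16, adjusted p = 0.048). Of 5 genes for idle ribosomes, 2 (40.0%) were higher and 2 (40.0%) lower in DDC, at a median of -0.03, too few genes to set against the background. The ribosome-binding Ccdc124 was at 0.45 ± 0.06, Habp4, a relative of the ribosome inhibitor Serbp1, at -0.28 ± 0.03, and Larp1, which binds TOP mRNAs, at -0.17 ± 0.04. Habp4 (0.31 ± 0.04) and Larp1 (0.18 ± 0.04) were higher and Ccdc124 (-0.50 ± 0.06) was lower in R15 against DDC, and none of the 5 passed in R15 against Control, where Eef2k was at -0.05 and Habp4 at 0.04.

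**Figure D5:**
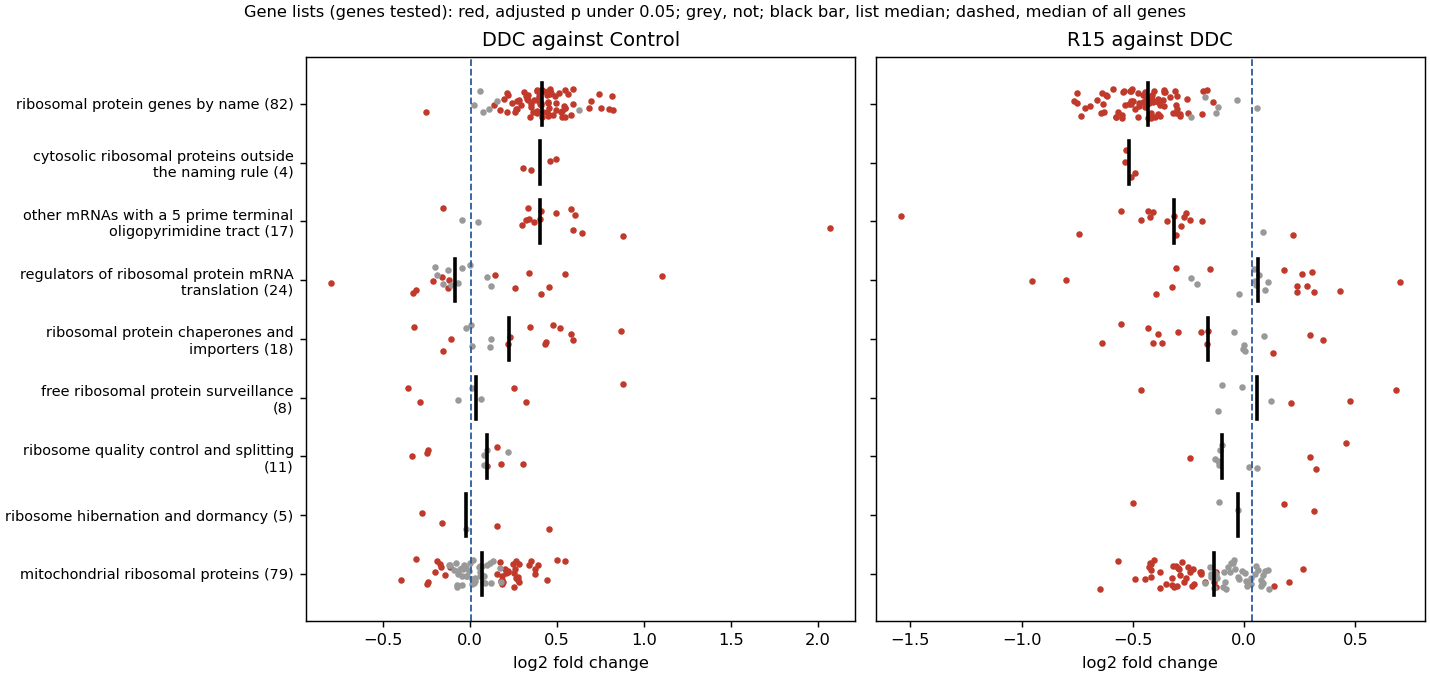
Log2 fold change of each tested gene by list for DDC against Control (left) and R15 against DDC (right), in red where the limma adjusted p is under 0.05, with the list median as a black bar and the median of all genes as a dashed line. Ribosomal protein genes and the other TOP mRNAs have medians near 0.4 in the left panel, and the mitochondrial ribosomal proteins have 0.07.

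Levels differed far more between these genes than between groups. Control means of the 82 ran from 19.7 FPKM (Rpl6l) to 1045 FPKM (Rplp1), with a median of 150, against 8.23 for all genes tested. Gene lengths in the table ran from 255 to 6262 bases, and Control FPKM fell with length (Spearman rho -0.71 over 82 genes). FPKM divides by this same length, so a negative rho can come from the unit itself and is only a description. The log2 fold change had rho -0.10 with length and 0.09 with level. The tested gene with the fewest reads in any library had 972.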

How the data were processed

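Bulk polyA RNA from EpCAM-selected liver cells was sequenced from 11 mice with a stranded mRNA kit, per the labels' protocols. The authors deposited 1 merged table of FPKM values per gene, in which 1 library is 1 column. The genome build was mm10, per the submitters' processing notes, and the aligner and counter are not stated in the labels or the table. Every value above 0 was a whole multiple of 1 read's worth within 0.001, and the reads recovered in this way gave the depth. Around 1 FPKM the median number of reads behind a value was 122.5, and the FPKM values carry no interval for counting error.

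Genes with at least 1 FPKM in at least 3 libraries were kept, 15264 in all. limma 3.58.1 (R 4.3.3) was fitted to log2(FPKM + 1) over the 3 groups with a trend in the prior variance, and p-values were 2-sided and adjusted by Benjamini-Hochberg over all genes of a comparison, with 0.05 as the threshold. Fold changes on this scale understate the change of low genes. Errors are SE for fold changes and SD for levels. The fit was tested on simulated data. Copies were found with blastn 2.17.0 among GENCODE M21 transcripts, and permutation tests used scipy 1.17.1 under Python 3.11.15. Start windows are RefSeq's.

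The members and gene lists were chosen with earlier results of these data known. The text names the 5 largest rises and falls per comparison among genes that passed without overlap, all paralog pairs, a set of 16 well-studied genes, and the 2 or 3 genes of smallest p per list. Genes outside this are named where a count was 5 or fewer. Alternatives covered the pseudocount, the filter, scaling, the variance model, recovered reads with limma voom, the replicate block and the omission of libraries. Replicate numbers did not pair the libraries. Some genes are counted in the totals and not reported by name here.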

Additional observations from a re-analysis of the deposited data

Results flagged for a closer look

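In 4 genes Control 3 stood apart from the other 3 Control libraries: the gap to its nearest neighbour, as a share of the group's range, was above Dixon's 95% critical value. Rpl5 was at 102.5 FPKM in Control 3 and at 90.92 to 92.47 in the others. Rpl7 was at 171.2 FPKM in Control 3, against 145.8 to 149.4. Rps26 was at 500.1 FPKM in Control 3, against 373.3 to 392.7. Rps3 was at 123.7 FPKM in Control 3, against 104.4 to 105.8. These are 4 of 68 groups examined, and chance gives about 1 in 20. Across the ribosomal protein genes Control 3 had a median log2 deviation of 0.16 from its group mean. Its acinar share was 0.118% of reads and its macrophage sum 128.3 FPKM, and their part in the deviation was not tested.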

How the results depend on the processing

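The count of ribosomal protein genes higher in DDC than in Control lay between 69 and 77 over all settings tried, and that of genes lower in R15 than in DDC between 60 and 77. The 1 gene lower in DDC, Rps4l, was lost (0 genes) with no filter on low values, under the replicate block and at an adjusted p under 0.01, and leaving out 1 library gave 0 to 1. Rps4l was at -0.18 without the libraries with acinar transcripts, which leaves 1 Control library, so no call is read from that fit. Leaving out 1 library gave 73 to 77 higher genes in DDC, 71 to 77 lower in R15 against DDC, and 0 to 1 higher in R15 against Control, the 1 being Rpl13 without R15 1.

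The median log2 fold change of DDC against Control was 0.301 with quantile normalization and 0.533 without the acinar libraries, which leaves 1 Control library that is assumed to vary like the other groups. That of R15 against DDC was -0.251 under quantile normalization and -0.315 where every library was rescaled to the same total. Under the rescaling the median of all genes for R15 against DDC was 0.135, against 0.035, with 6172 genes higher and 3305 lower in place of 5099 and 4397. For R15 against Control the split of all genes was 1048 higher and 415 lower, and 682 and 707 with median-of-ratios scaling. Without the acinar libraries it was 9 and 1. For DDC against Control the rescaling gave 4162 higher and 5518 lower in place of 5112 and 4869.

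Of reads, ribosomal protein genes took 1.995% in R15, 2.72% in DDC and 2.025% in Control, and of the FPKM of protein-coding genes 5.78% in R15, 7.281% in DDC and 5.7% in Control. With pseudogene entries named after them the shares were 5.363% in R15, 6.801% in DDC and 5.396% in Control. Rpl5 changed sign in R15 against DDC with quantile normalization (0.008, adjusted p = 0.87). Of 2862 values for 33 named ribosomal protein genes under the alternatives, 39 lost their call and 9 gained one. Of 2973 values for 35 genes of the other lists, 60 lost it and 19 gained one. The cause was not tested.

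With the replicate block 74 genes were higher and 0 lower in DDC against Control, and 73 were lower in R15 against DDC. Same-numbered libraries had correlations of -0.282 to 0.3, so the numbers were not taken as pairs. The 95% intervals of ribosomal protein genes in R15 against Control had a median half-width of 0.172, with 3 or 4 mice a group.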
